A study of Homo sapiens with 6 samples.

Results

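The Hippo pathway genes described here are 10 in number: the coactivators YAP1 and WWTR1 (TAZ), the DNA-binding factors TEAD1 to TEAD4, the kinases LATS1 and LATS2, and the secreted proteins CCN1 (CYR61) and CCN2 (CTGF). They were chosen by symbol, and every probe set of the array annotated to one of these symbols alone was taken. This gave 27 probe sets of 54675, with at least 1 for each gene, among 19775 genes measured in all. The tested cells were mesodermal progenitors, made from the human embryonic stem cell line H9 with VEGF, FGF2, BMP4 and activin A added to Stemline II medium. They had been sorted on day 3.5 of culture as cells without CD326 (EPCAM) and with CD56 (NCAM1). They were compared with undifferentiated H9 cells (hESC). Each population was measured on 3 one-colour oligonucleotide arrays. All cells came from 1 line, and no unsorted cells of day 3.5 were among the samples, so the sort and the differentiation cannot be told apart.

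The Hippo pathway is a kinase cascade that limits growth. Its last kinases, LATS1 and LATS2, phosphorylate YAP and TAZ, which are then held in the cytoplasm and degraded. Unphosphorylated YAP and TAZ enter the nucleus, where they have no DNA-binding domain of their own and act through TEAD factors on genes such as CCN1 and CCN2. Much of this control is exerted on the proteins, which these arrays do not measure. In the mouse embryo TEAD4 is needed for the trophectoderm, and YAP and TAZ are known in human stem cells as regulators of self-renewal and lineage choice.

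TEAD factors recognise the motif GGAATG, which is shown here because CCN2 and YAP1 carry it close to their starts. RefSeq promoters (GRCh38.p14) were found for 7 of the 10 genes, not for TEAD1, TEAD4 and CCN1. In the 250 bases before a start, both strands searched, CCN2 had 3 matches and YAP1 had 1, and WWTR1, TEAD2, TEAD3, LATS1 and LATS2 had none at any listed start. Capitals mark the matches in the sequences, which read 5′ to 3′ on the gene's strand, for CCN2 from chr6:131951373-131951622 (minus strand) and for YAP1 from chr11:102110197-102110446 (plus strand).
CCN2: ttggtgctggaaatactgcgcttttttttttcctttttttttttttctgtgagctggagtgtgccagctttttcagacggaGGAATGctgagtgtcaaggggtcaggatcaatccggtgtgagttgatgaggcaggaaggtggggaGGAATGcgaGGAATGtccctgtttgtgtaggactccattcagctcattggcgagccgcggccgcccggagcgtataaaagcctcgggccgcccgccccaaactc
YAP1: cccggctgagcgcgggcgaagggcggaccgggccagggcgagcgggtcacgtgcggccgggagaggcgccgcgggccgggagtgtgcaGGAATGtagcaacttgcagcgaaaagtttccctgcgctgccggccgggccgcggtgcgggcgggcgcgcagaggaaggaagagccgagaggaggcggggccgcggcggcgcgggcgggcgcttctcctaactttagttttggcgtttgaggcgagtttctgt
The matches of CCN2 began 169, 104 and 95 bases before the start, without overlap, and that of YAP1 began 162 bases before it. At least 1 match was present in 11.9% of 35116 promoters of the same length, and 3 or more in 0.0826% (29 promoters). Counted by gene at any listed start, as for the 7 genes above, the shares were 14.3% and 0.106% of 27305 genes. A match is a run of letters and not a measured binding site.

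The sort antigens and lineage genes fitted the labels of the arrays. The log2 change was 3.46 for NCAM1 and -2.33 for EPCAM, and all 7 mesoderm markers, such as HAND1 and TBXT, were higher and all 6 measured stem cell markers, such as NANOG and SOX2, lower. Median intensities were 31.0 to 31.2 on the progenitor arrays, against 33.1 to 36.1 on the hESC arrays. Progenitor arrays 2 and 3 lay closest together, with 7 genes over 2-fold apart, against 180 and 208 between progenitor array 1 and these. Of 11 endothelial markers all were higher on progenitor array 1 than on the mean of arrays 2 and 3, by a median of 1.40 (log2), and their summed normalized intensity was 6288 there against 2070 and 2236, and 650 to 714 in hESC. No deposited value of any gene was 0, the lowest being 0.63, so values above 0 do not show that a marker was detected. Of the 11 markers 1 had a mean intensity of 16 or less in the progenitors, against 6 in hESC. RNA of a whole population was measured, so a change in the number of cells that express a gene and a change in the RNA per cell cannot be told apart.

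The comparison asked how far the transcripts of the pathway's nuclear effectors and of their best-known targets differed between the sorted progenitors and the stem cells they came from. The coactivators and TEAD1, TEAD2 and TEAD3 were called higher in the progenitors, while TEAD4 and both CCN genes were called lower. TEAD2 and TEAD3 lost their calls when each array was centred on its gene median. TEAD4 lost its call when arrays were scaled on hybridization controls. WWTR1 was 2.03-fold, YAP1 1.82-fold and TEAD1 1.76-fold the hESC level, TEAD4 was at 0.584, CCN2 at 0.556 and CCN1 at 0.449 of it, and neither LATS kinase passed the test. The test was limma's, fitted on all 19775 genes at once and two-sided. A gene was called where its p, adjusted over all genes by the Benjamini-Hochberg method, was under 0.05. Of the 10 genes 5 were called higher and 3 lower. Of all genes 26.7% were called higher and 21.2% lower (47.9% in either direction), so a call by itself is common in these data. The arrays of the groups did not overlap for any of the 10 genes, as was the case for 57.3% of all genes. Progenitor arrays were above for 5 of them and below for 5, against 32.0% and 25.3% of all genes. A call with a change of at least 2-fold was reached by WWTR1 and CCN1, and by 16.6% of all genes. The median change of the 10 genes was -0.00, against 0.04 for all genes.

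**Figure D1:**
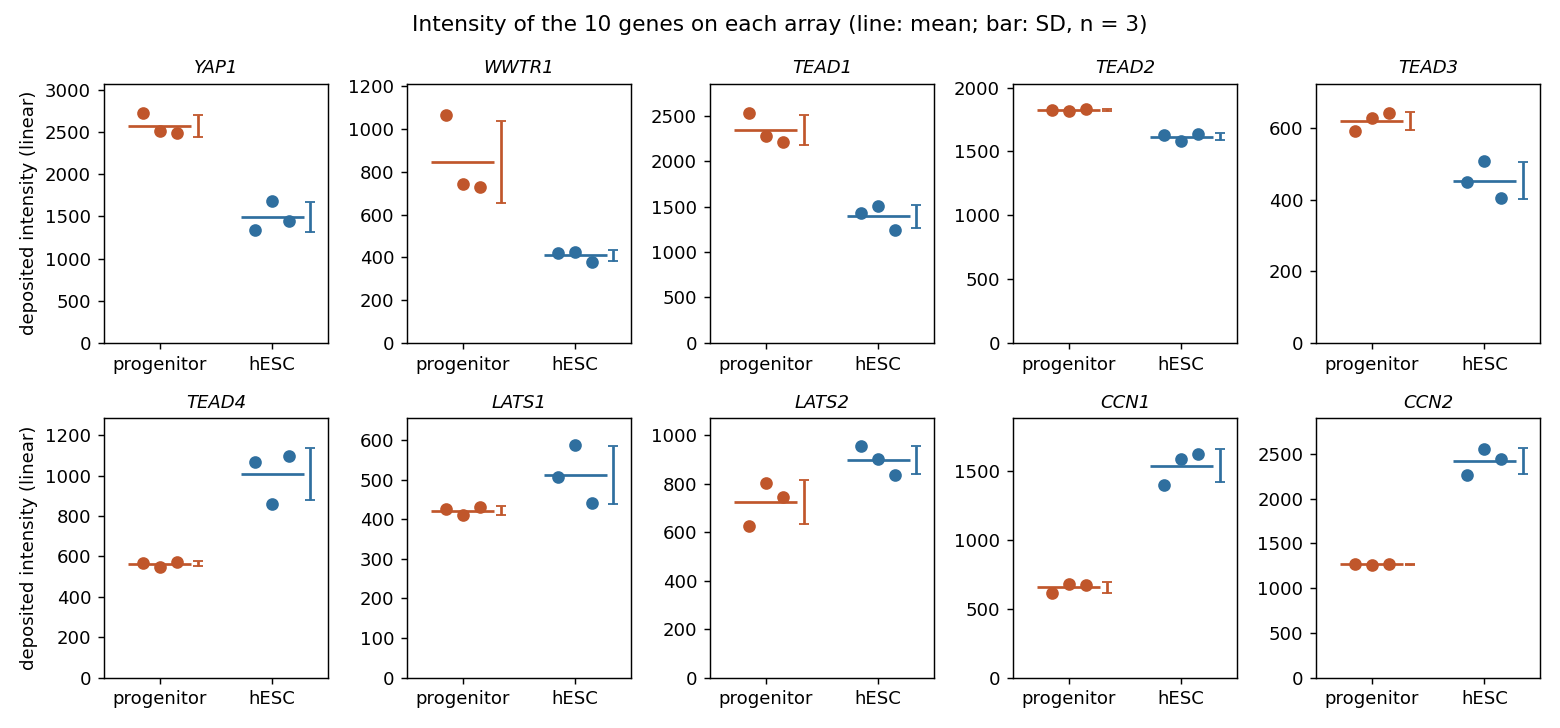
Deposited linear intensity (y axis, from 0) of the brightest probe set of each gene on each of the 3 progenitor and 3 hESC arrays (points); lines are means and bars SDs. YAP1, WWTR1, TEAD1, TEAD2 and TEAD3 lie higher on all progenitor arrays, and TEAD4, LATS1, LATS2, CCN1 and CCN2 lie lower, where LATS1 and LATS2 did not pass the test and changed sign when arrays were scaled on hybridization controls.

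YAP1, the coactivator at the end of the pathway, had deposited intensities of 2726, 2508 and 2493 on the progenitor arrays, against 1345, 1686 and 1450 on the hESC arrays. Each progenitor array was well above the highest hESC array. The log2 change, progenitor minus hESC on the log2(intensity + 16) scale after quantile normalization, was 0.87 (SE 0.10, n = 3 per group, limma adjusted p = 0.000311), which is 1.82-fold with a 95% interval of 1.55 to 2.15. Both other probe sets of YAP1 were called higher as well, by unequal amounts. Probe set 213342_at read 254, 241 and 233 in the progenitors against 78.4, 60.1 and 86.9 in hESC, a log2 change of 1.53 (SE 0.14). Probe set 224895_at read 1587, 1623 and 1621 in the progenitors against 1316, 1297 and 1094 in hESC, a log2 change of 0.46 (SE 0.09), which did not pass with gene-median centring (0.23). The 95% intervals of these changes, 1.19 to 1.87 for the dimmer probe set and 0.24 to 0.69 for the brighter one, do not meet, so the size of the YAP1 increase depends on the probe set read while its direction does not.

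WWTR1, which encodes the paralogous coactivator TAZ, had the largest increase of the 10 genes on the brightest probe sets. Its intensities were 1068, 743 and 729 in the progenitors, against 421, 426 and 379 in hESC. All progenitor arrays were above all hESC arrays, and progenitor array 1 stood above the other progenitor arrays. The log2 change was 1.02 (SE 0.15, n = 3 per group, limma adjusted p = 0.00104), or 2.03-fold (95% interval 1.59 to 2.60). Without progenitor array 1 it was 0.85 (adjusted p = 0.000608). Array 1 is also the one with the higher endothelial markers given above, whose part in the WWTR1 level was not tested; the increase was present on arrays 2 and 3 alone. A dimmer probe set, 202132_at, changed by 0.92 (SE 0.17), and probe set 202134_s_at by 0.19 (SE 0.12, 95% interval -0.09 to 0.46) without passing, with 155, 119 and 118 in the progenitors against 109, 126 and 103 in hESC. That probe set overlapped between the groups, and it was called higher only with scaling on hybridization controls (0.65, limma adjusted p = 0.00167). The mean of all 3 WWTR1 probe sets changed by 0.71, less than the 0.95 of the YAP1 probe sets. With array weights WWTR1 was also below YAP1, at 0.85 against 0.95.

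The TEAD family moved in both directions. TEAD1 read 2530, 2277 and 2214 in the progenitors against 1427, 1501 and 1248 in hESC. Every progenitor array was above every hESC array, and the log2 change was 0.82 (SE 0.09, n = 3 per group, limma adjusted p = 0.000280), or 1.76-fold (95% interval 1.52 to 2.05). A second TEAD1 probe set, 214600_at, changed by 0.89 (SE 0.15), and a dim one, 1553322_s_at, by 0.27 without passing. The dim one was called higher with scaling on hybridization controls (0.46, limma adjusted p = 0.0350).

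TEAD3 had a single probe set, 209454_s_at, with 593, 628 and 641 in the progenitors against 450, 507 and 404 in hESC. The groups did not overlap, and the log2 change was 0.46 (SE 0.10, limma adjusted p = 0.00687). With gene-median centring, which sets the median gene of every array to the same level, TEAD3 did not pass (0.30, adjusted p = 0.0538). TEAD2 read 1825, 1815 and 1835 in the progenitors against 1628, 1585 and 1634 in hESC. Its arrays were tightly grouped and the change was small, 0.25 (SE 0.08, limma adjusted p = 0.0317), or 1.19-fold. The call of TEAD2 was lost without any 1 of the 3 progenitor arrays and without hESC array 1 or 2, with changes of 0.22 to 0.26 in these fits and adjusted p = 0.0539 to 0.107. It was also lost with gene-median centring, at 0.03. Dimmer probe sets of TEAD2, 238323_at and 238322_s_at, were called higher with larger changes, 0.71 (SE 0.21) and 0.45 (SE 0.12), and lost their calls, 238323_at without any 1 array other than hESC array 3 (0.53 to 0.76), and 238322_s_at without progenitor array 1 or 3 or hESC array 1 or 2 (0.37 to 0.44).

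TEAD4 was the member of the family that was lower in the progenitors. Probe set 41037_at read 566, 550 and 573 in the progenitors against 1069, 858 and 1095 in hESC, and probe set 204281_at read 496, 469 and 448 in the progenitors against 868, 699 and 916 in hESC. The progenitor arrays lay close together and below every hESC array on both. The log2 changes were -0.77 (SE 0.12, n = 3 per group, limma adjusted p = 0.00115) on the first and -0.76 (SE 0.12) on the second. With scaling on hybridization controls neither passed, the first at -0.30 (adjusted p = 0.140) and the second at -0.27. Of 9 trophoblast markers, a lineage in which TEAD4 is known to act, 3 were higher, 2 lower and 4 not past the test, and their summed normalized intensity was 4903 to 5353 on the progenitor arrays, against 5115 to 6590 on the hESC arrays. The 3 higher ones were GATA3 (5.11), TFAP2A (4.19) and KRT7 (2.01), of which GATA3 read 1458, 1681 and 1722 in the progenitors against 34.7, 36.9 and 31.2 in hESC. The 2 lower ones, PGF (-1.31) and HLA-G (-0.42), were bright. They make up most of the sums in the progenitors and nearly all of them in hESC, so the sums do not show the rise of the other 3. GCM1, CGA, ELF5 and VGLL1 were dim in both groups, and the part of such cells in the TEAD4 level was not tested.

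The LATS kinases, which inactivate YAP and TAZ, did not pass the test. LATS1 read 425, 410 and 430 in the progenitors against 507, 586 and 440 in hESC. The lowest hESC array was just above the highest progenitor array, and the log2 change was -0.26 (SE 0.11, 95% interval -0.51 to -0.01, limma adjusted p = 0.0857). Without hESC array 3 LATS1 passed, at -0.35 (adjusted p = 0.0229). LATS2, itself a known target gene of YAP, read 625, 802 and 746 in the progenitors against 953, 899 and 836 in hESC, a log2 change of -0.26 (SE 0.12, 95% interval -0.53 to 0.02, limma adjusted p = 0.117). Progenitor array 1 was the lowest, and without it the LATS2 change was -0.15. With gene-median centring both were called lower, LATS1 at -0.41 and LATS2 at -0.45. Both genes changed sign when arrays were scaled on hybridization controls, to 0.25 for LATS1 and 0.21 for LATS2, without passing. The other 3 LATS1 probe sets were at or below 20.6 on every array and did not pass. Of the other 3 LATS2 probe sets, 223379_s_at was called lower (-0.50, SE 0.12), at intensities of 7.90 to 13.1 in the progenitors against 20.7 to 28.3 in hESC, and not without progenitor array 3 (-0.42, adjusted p = 0.0524). Probe set 230348_at of LATS2 ran the other way, at 0.26, and passed without progenitor array 1 (0.52, adjusted p = 0.0446).

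CCN1 and CCN2, secreted matrix-associated proteins widely used as readouts of YAP and TAZ activity, were both lower in the progenitors. CCN1 read 613, 680 and 676 in the progenitors against 1404, 1592 and 1628 in hESC. Every progenitor array was below every hESC array by a wide margin, and the log2 change was -1.15 (SE 0.10, n = 3 per group, limma adjusted p = 8.57e-05), or 0.449 of the hESC level (95% interval 0.379 to 0.532). The second CCN1 probe set, 210764_s_at, with 410, 438 and 470 in the progenitors against 1099, 1105 and 1276 in hESC, changed by -1.35 (SE 0.11).

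CCN2 read 1273, 1260 and 1264 in the progenitors against 2261, 2554 and 2441 in hESC. The progenitor arrays were nearly equal and all lay below the hESC arrays. The log2 change was -0.85 (SE 0.08, n = 3 per group, limma adjusted p = 0.000114), or 0.556 of the hESC level (95% interval 0.487 to 0.634). Both CCN genes kept their direction and their call in every alternative, with changes of -1.36 to -0.69 for CCN1 and -1.07 to -0.40 for CCN2.

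**Figure D2:**
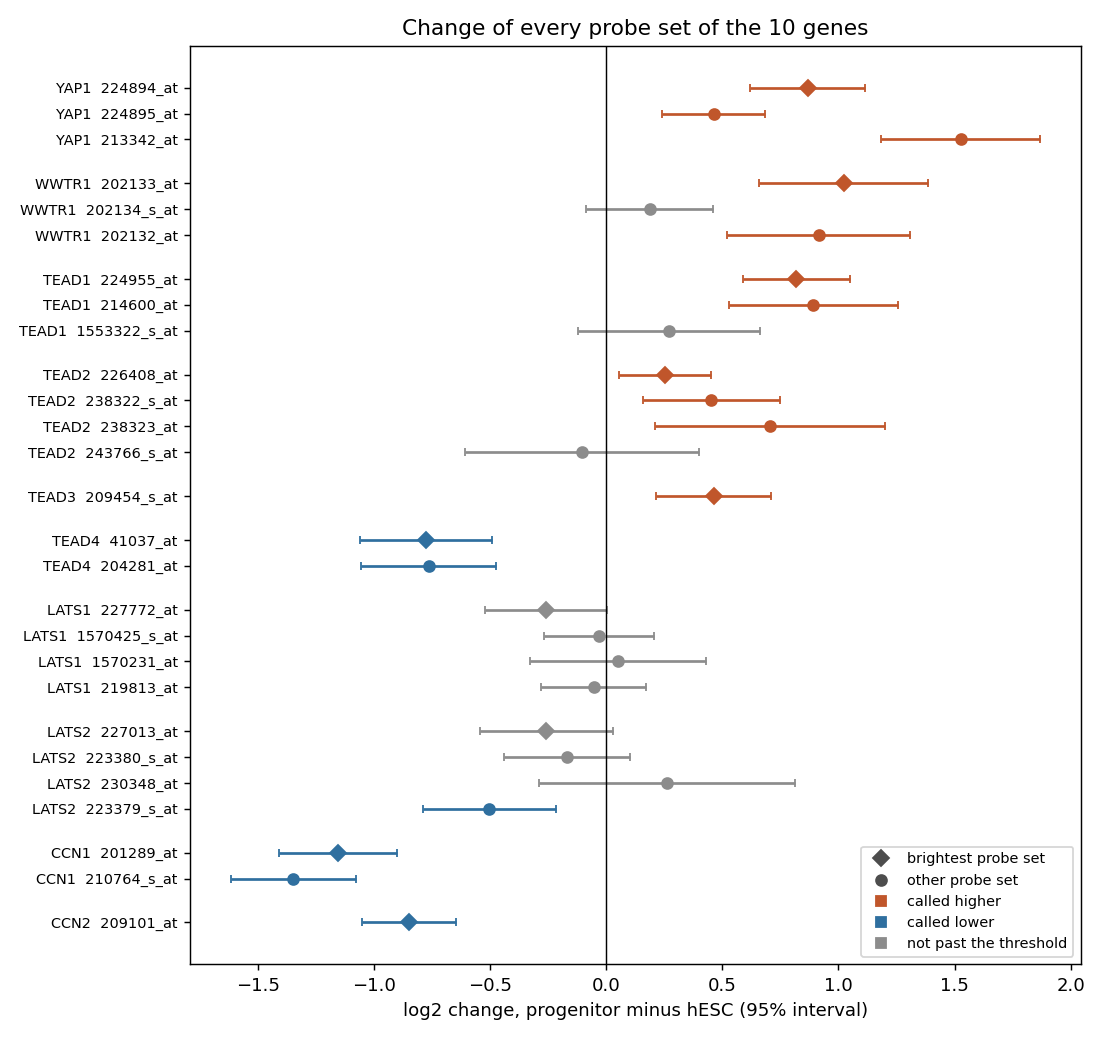
Log2 change, progenitor minus hESC (x axis), of all 27 probe sets of the 10 genes (rows), with 95% intervals; diamonds are the brightest probe set of a gene and circles the others. All probe sets of YAP1, TEAD4 and CCN1 were called in 1 direction; WWTR1, TEAD1, TEAD2 and LATS2 each hold at least 1 that did not pass, and none of the 4 of LATS1 passed.

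Read probe set by probe set, in a fit over 54613 probe sets, 11 of the 27 were called higher, 6 lower and 10 did not pass, where 40.2% of all probe sets were called, 20.3% higher and 20.0% lower. Of the 27, 6 were below the array median on every array, and 1 of these was called, the LATS2 probe set 223379_s_at. No gene had probe sets called in opposite directions.

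The scaling of the arrays moved all changes together. The median change of all genes was 0.04 on the scale used, -0.15 with gene-median centring, 0.00 without normalization and 0.32 with scaling on the hybridization controls. Relative to that median, WWTR1 was at 1.00 with gene-median centring and 1.19 with scaling on hybridization controls, YAP1 at 0.78 and 0.99, TEAD1 at 0.74 and 0.95, TEAD4 at -0.81 and -0.62, CCN1 at -1.21 and -1.01 and CCN2 at -0.92 and -0.72. LATS1 was at -0.26 and -0.07 and LATS2 at -0.31 and -0.11. Gene-median centring and scaling on hybridization controls each apply a single value to an array, which moves bright genes nearly alike. The order of the genes is thus nearly fixed by construction, and sharing it is no check. The changes of TEAD2, TEAD3, LATS1 and LATS2 are at most about the size of the shift between these scalings. TEAD3 was at 0.30 with gene-median centring and 0.96 with scaling on hybridization controls.

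**Figure D3:**
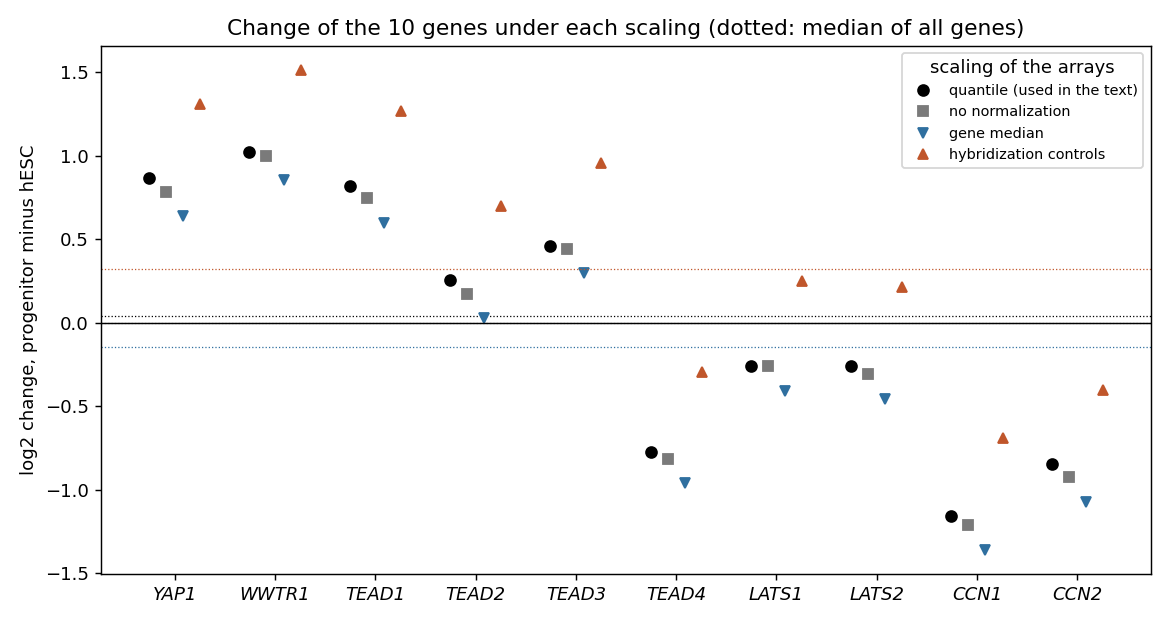
Log2 change, progenitor minus hESC (y axis), of the 10 genes (x axis) under 4 scalings of the arrays (symbols), with the median change of all genes under each as a dotted line. LATS1 and LATS2 turn from below 0 to above 0 with scaling on hybridization controls, and no other gene of the 10 changes sign.

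Upstream of LATS, the kinases and adaptors of the cascade went both ways. Among 12 measured genes were 4 that rose and 2 that fell, while 6 did not pass (median change 0.13). The called share, 6 of 12, is near the 47.9% of all genes. STK3 (MST2), one of the kinases that activate LATS, rose by 1.60 (SE 0.15), at 626, 637 and 664 in the progenitors against 203, 162 and 242 in hESC. MAP4K5, another kinase upstream of LATS, rose by 0.80 (SE 0.20), with 844 on progenitor array 1 against 500 and 502 on arrays 2 and 3. The MAP4K5 change was 0.56 to 0.93 with single arrays left out, and its call was lost without hESC array 2 (0.75, limma adjusted p = 0.0511). MOB1B, a cofactor of LATS, rose by 0.56 (SE 0.12). SAV1, the scaffold of the MST kinases, changed by -1.18 (SE 0.12), at 611, 706 and 666 in the progenitors against 1508, 1865 and 1409 in hESC. STK38L (NDR2), a kinase related to LATS, changed by -0.89 (SE 0.10). With scaling on hybridization controls SAV1 was at -0.72 and STK38L at -0.40, while MAP4K5 was at 1.31 and MOB1B at 1.05. On the mean of its probe sets SAV1 was at -0.42 and STK3 at 0.98. STK3 and the scaffold SAV1 thus moved in opposite directions. The other MST kinase, STK4 (MST1), did not pass, at -0.01. It read 738, 656 and 626 in the progenitors against 661, 781 and 650 in hESC. TAOK1 and MAP4K4, kinases that can act on the cascade from above, were bright and did not pass, at -0.00 and 0.23. TAOK1 was called higher with scaling on hybridization controls (0.44, limma adjusted p = 0.00914). MAP4K4 was called higher in 6 alternatives (0.22 to 0.69), array weights and scaling on hybridization controls among them. With all its probe sets averaged, MAP4K4 was called lower, at -0.45 (adjusted p = 0.0130).

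The regulators at junctions and membrane were split as well. Among 21 measured were 8 that rose and 6 that fell, while 7 did not pass (median -0.03), where 26.7% of all genes were called higher and 21.2% lower. CRB2, a crumbs polarity protein, rose by 2.46 (SE 0.15), a size that depends on the pseudocount since hESC read 12.9, 6.56 and 11.1 (1.36 with a pseudocount of 64). Also higher were the angiomotin relative AMOTL1, which binds YAP, at 2.17 (SE 0.09), and the giant cadherin FAT4, at 1.67 (SE 0.20). AMOTL1 was bright, at 1727, 1564 and 1509 in the progenitors against 345, 333 and 377 in hESC. FAT3, another giant cadherin, changed by -2.45 (SE 0.22), WWC1 (KIBRA), a scaffold that promotes LATS activation, by -1.90 (SE 0.09), and PATJ, a tight junction polarity protein, by -1.31 (SE 0.11). The sizes of these decreases depended on the probe sets read, with means over all probe sets of -1.52 for FAT3 and -0.61 for PATJ, and WWC1 at -3.11 and PATJ at -0.39 without probe sets whose names end in _s_at or _x_at. PATJ was at -0.80 with scaling on hybridization controls. WWC1 read 101, 103 and 88.9 in the progenitors against 437, 404 and 389 in hESC. AJUBA, a LIM protein that inhibits LATS, and WWC3, a relative of KIBRA, did not pass, at -0.10 and -0.18. WWC3 was called lower in 4 alternatives (-0.38 to -0.17), gene-median centring and array weights among them, and stood at 0.29 with scaling on hybridization controls.

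The VGLL proteins compete with YAP and TAZ for TEAD. Among the 4 were 1 that rose and 1 that fell, while 2 did not pass (median 0.11). VGLL3 changed by -3.25 (SE 0.15), at 28.4, 14.0 and 22.2 in the progenitors against 344, 372 and 315 in hESC, the largest decrease among the 59 other pathway genes. Over the alternatives the VGLL3 change was -3.93 to -2.25. VGLL4, an inhibitor of YAP and TEAD, rose by 0.46 (SE 0.15, limma adjusted p = 0.0395), at 807, 572 and 571 in the progenitors against 481, 420 and 505 in hESC. Its call was lost without progenitor array 1 (0.30) and without hESC array 1 (0.48), 2 (0.38) or 3 (0.51). It was also lost with gene-median centring (0.30), with a pseudocount of 1 (0.47) and with its probe sets averaged (0.15), and VGLL4 was at 0.96 with scaling on hybridization controls and 0.30 with array weights. VGLL1 and VGLL2 were dim and did not pass, at 0.11 and 0.12, and VGLL1 passed without hESC array 3 (0.32).

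Most other measured target genes of YAP and TAZ were called higher, unlike CCN1 and CCN2. From a set of genes used as a YAP and TAZ signature in tumours, 18 besides CCN1, CCN2 and LATS2 were measured. There were 12 that rose and 1 that fell, while 5 did not pass, where 26.7% of all genes were called higher and 21.2% lower, and the median change was 1.46 against 0.04 for all genes. ANKRD1, a muscle ankyrin repeat protein and classical YAP target, rose by 5.16 (SE 0.11), at 917, 836 and 830 in the progenitors against 6.11, 10.4 and 12.3 in hESC. These hESC intensities lie under the pseudocount of 16, so the size of the ANKRD1 change is uncertain. It was 3.69 to 6.48 over the alternatives, and 5.06 to 5.24 with single arrays left out. CCDC80, a matrix protein, rose by 4.15 (SE 0.16), and the growth factor gene TGFB2 by 3.86 (SE 0.23), with 940 on progenitor array 1 against 522 and 525 on arrays 2 and 3. On the mean of its probe sets TGFB2 was at 1.52, and CCDC80 was at 2.92 to 4.69 over the alternatives. DOCK5, an exchange factor for RAC, was the member that fell, by 0.87 (SE 0.09), about as much as CCN2. DOCK5 was at -0.38 with its probe sets averaged and with scaling on hybridization controls, and at -0.50 without _s_at and _x_at probe sets. PTPN14, a phosphatase that binds YAP, and AXL, a receptor kinase, were bright and did not pass, at -0.10 and 0.02. AXL was called higher with scaling on hybridization controls (0.47, adjusted p = 0.00874). With all its probe sets averaged, PTPN14 was called higher, at 0.24 (adjusted p = 0.0466). Of the 18 genes 13 had RefSeq promoters, and 6 of these held at least 1 GGAATG match, where 14.3% of all genes did so at any listed start. ANKRD1 had 2 matches and AMOTL2, AXL, FOXF2, PTPN14 and TGFB2 had 1 each. Matches were present in 4 of 9 genes that rose and in 2 of 4 that did not.

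Of the other CCN genes, CCN4 (WISP1), known as a WNT-induced gene, rose by 2.37 (SE 0.09), at 73.0, 82.6 and 84.8 in the progenitors against 3.99, 3.21 and 1.96 in hESC. The hESC level is so low that the size of the change depends on the pseudocount, with 4.42 at a pseudocount of 1 and 1.13 at 64, and it was 1.30 on the mean of the CCN4 probe sets. CCN3, CCN5 and CCN6 did not pass, and CCN3 and CCN6, the brighter pair of these, were at -0.10 and 0.22. All 3 were dim in both groups, and CCN6 was called higher with scaling on hybridization controls (0.42, limma adjusted p = 0.0313).

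**Figure D4:**
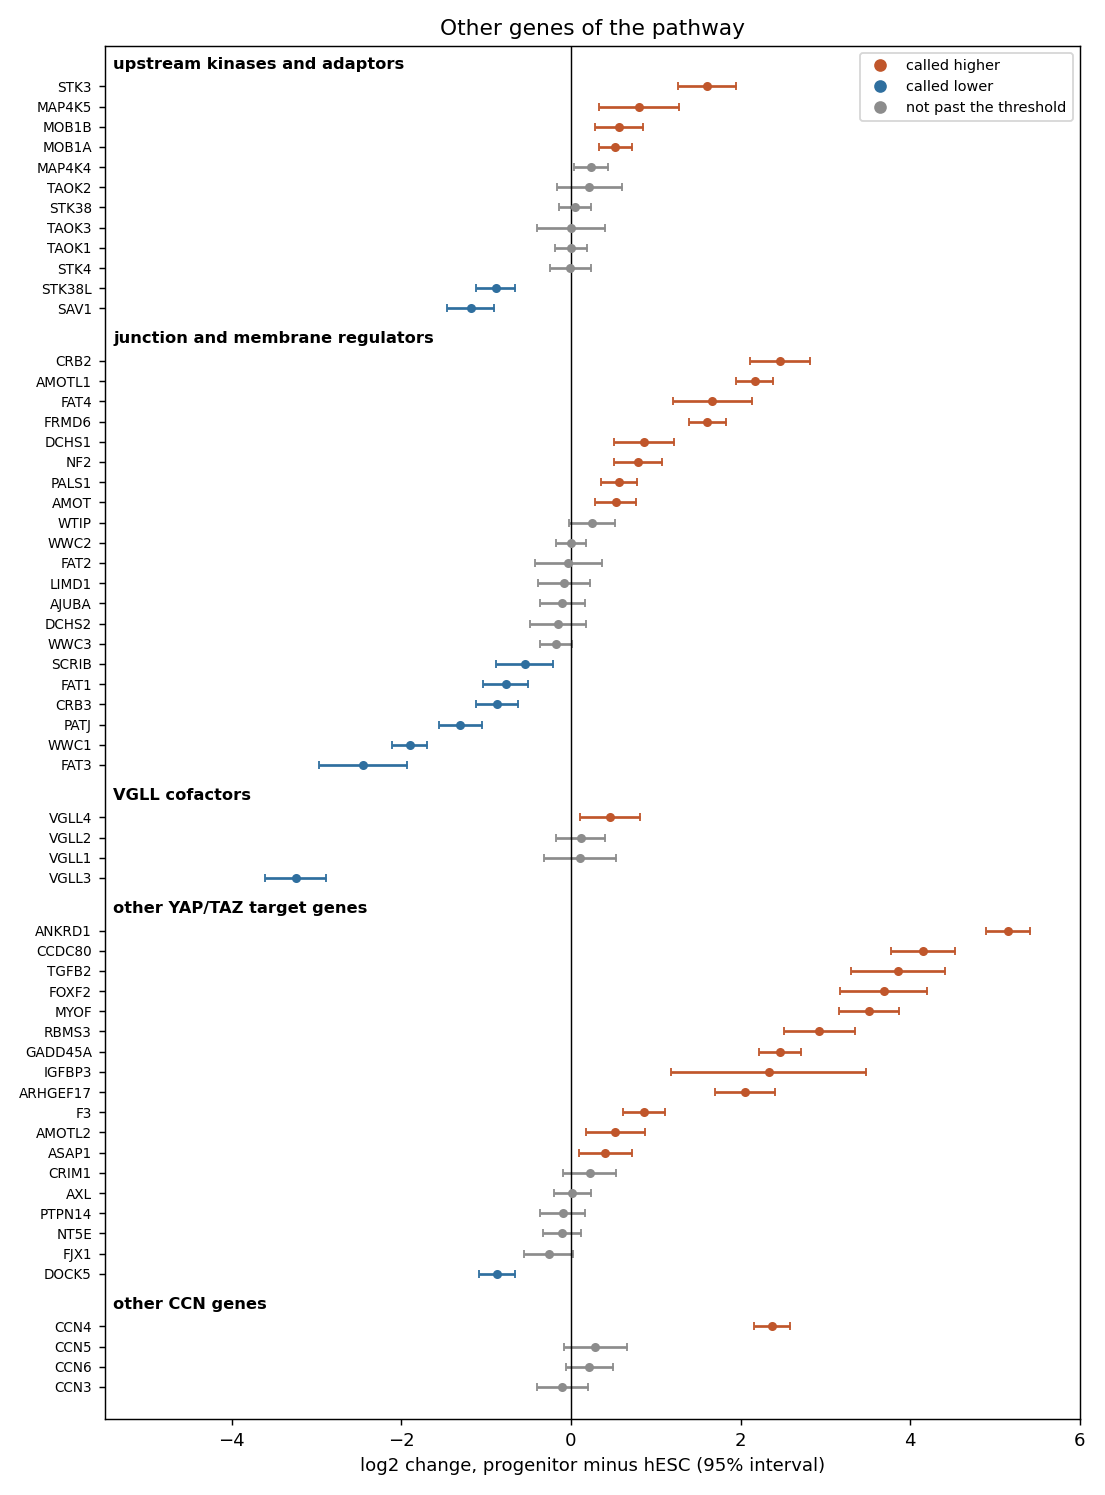
Log2 change, progenitor minus hESC (x axis), with 95% intervals, of 59 other genes of the pathway (rows) in 5 lists ordered by role. Of the 59 genes 26 were called higher and 10 lower; the target genes reach from DOCK5 at -0.87 to ANKRD1 at 5.16, and with scaling on hybridization controls 38 were called higher and 9 lower.

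Over the 5 lists 26 of 59 genes rose and 10 fell, a share of higher calls of 72.2% against 55.8% among all genes called. With gene-median centring these counts were 23 and 13 (63.9% higher, against 37.3% of all calls), and with scaling on hybridization controls 38 and 9 (80.9%, against 81.9%). On the scale used, the target genes made up 12 of the 26 higher calls and 1 of the 10 lower ones.

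The genes whose profiles over the 6 arrays lay nearest to those of WWTR1 and CCN1, the members with the largest increase and decrease on the brightest probe sets (YAP1 is above WWTR1 on the mean of probe sets and with array weights), were found by Euclidean distance of centred log2 values. For WWTR1 they were the histone gene H2BC12, the actin-severing protein GSN and the phosphatase PTP4A3, at distances of 0.12, 0.13 and 0.15 and with changes of 0.99, 1.03 and 1.08. Other probe sets of GSN went the other way, and its change was -0.76 without probe sets whose names end in _s_at or _x_at, and PTP4A3 was at 0.69 on the mean of its probe sets. For CCN1 they were the WNT-pathway gene KREMEN2, the nodal-pathway ligand GDF3 and the phospholipase GPLD1, at 0.10, 0.10 and 0.11. Their changes were -1.20, -1.17 and -1.08, with GPLD1 at -0.49 on the mean of its probe sets. Since the arrays fall into 2 groups, these distances mostly compare the sizes of the group difference.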

How the data were processed

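Expression was measured on 6 one-colour arrays, 3 per group, grouped by title. The authors deposited 1 linear intensity per probe set, as the values show, and 2.15% of values equalled 1. The probe summary and array scaling is not given in the sources used here. Among 54675 probe sets, 41097 were annotated to 1 gene, and symbols were updated by gene identifier. Intensities were converted to log2(intensity + 16) and quantile-normalized. A gene was read from its probe set with the highest mean. Groups were compared with limma 3.58.1 (R 4.3.3; lmFit, eBayes, Benjamini-Hochberg), over all genes and, separately, over 54613 probe sets without the 62 array controls. The same fit was also run on simulated data with known changes, and the outcome is not given here. The number of arrays limits the precision, and nothing says that replicates came from separate cultures, so p-values may measure technical spread only. Alternatives changed scaling, pseudocount (1, 64), filter (dimmest 30% or 50%), probe set choice, variance model, threshold (0.01), pairing and arrays. The 10 genes, the lists and the tests were chosen with earlier results of these data known. Besides the 10 genes, the text names per list the 3 largest increases, the 3 largest decreases and the 2 brightest not past the threshold. STK4, FOXF2, AMOTL2, CCN5 and marker genes were named beyond this. MAP4K2, MAP4K3, NUAK2 and TDGF1 are not analysed here. Figures were drawn with matplotlib 3.10.9.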

Additional observations from a re-analysis of the deposited data

How the results depend on the processing

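YAP1, WWTR1, TEAD1, CCN1 and CCN2 kept their direction and call in all 20 alternatives, with log2 changes of 0.64 to 1.31, 0.71 to 1.51, 0.60 to 1.27, -1.36 to -0.69 and -1.07 to -0.40. TEAD2 kept its call in 9 of 20, TEAD3 in 18 of 19 and TEAD4 in 19 of 20. With gene-median centring 3 of the 10 genes were higher and 5 lower, 7 probe sets were higher, and 6436 of all genes were lower. With scaling on hybridization controls 3 probe sets were lower, and 9086 of all genes were higher and 2007 lower, against 5278 and 4185. Array weights called 5 of the 10 genes lower, LATS1 and LATS2 among them, and a threshold of 0.01 called 7 probe sets higher. Leaving out 1 array gave 4 to 5 of the 10 genes higher and 3 to 4 lower. Same-numbered arrays did not deviate together (r = -0.02, 0.03 and -0.04 for numbers 1, 2 and 3). With so few arrays this cannot show whether the samples were paired, and the labels do not say. With the replicate block 4 of the 10 genes were higher and 3 lower, TEAD2 being the one not called (limma adjusted p = 0.0842). In that fit 4956 and 3924 of all genes were called higher and lower.

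Direction turned mostly in genes that had not passed the test, and the cause was not tested. With scaling on hybridization controls these were LATS1 (0.25), LATS2 (0.21), LATS1 probe set 1570425_s_at (0.16), LATS2 probe set 223380_s_at (0.34), TAOK1 (0.44), AJUBA (0.36), WWC3 (0.29), PTPN14 (0.35) and CCN3 (0.031). With gene-median centring they were VGLL1 (-0.10), VGLL2 (-0.10), AXL (-0.20), CCN6 (-0.013) and LATS1 probe set 1570231_at (-0.14). AXL turned also without normalization (-0.049) and with array weights (-0.094), as did VGLL2 with array weights (-0.010). On the mean of a gene's probe sets MAP4K4 (-0.45), AJUBA (0.0098), PTPN14 (0.24) and GSN (-0.0091) turned, and without _s_at and _x_at probe sets MAP4K4 (-0.016) and GSN (-0.76), the only one of these that had been called. With progenitor arrays 2 and 3 averaged TAOK1 was at 0.00072 and TEAD2 probe set 243766_s_at at 0.0069. Leaving out single arrays turned AXL (-0.035 to 0.066), TAOK1 (-0.047 to 0.019), VGLL1 (-0.0060 to 0.32), the dim LATS1 probe sets 1570231_at (-0.059 to 0.19), 1570425_s_at (-0.1 to 0.022) and 219813_at (-0.089 to 0.019) and the dim TEAD2 probe set 243766_s_at (-0.32 to 0.093). Without _s_at and _x_at probe sets TEAD3 had no value.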
